A study of Sus scrofa with 44 samples.

Results

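Proteins that set alternative splicing in muscle were followed through the prenatal growth of pig back muscle, as messenger RNA (mRNA) and as carriers of N6-methyladenosine (m6A), a methyl mark on internal adenosines of mRNA. The genes were chosen by symbol: MBNL1, MBNL2, MBNL3, CELF1, CELF2, RBFOX1, RBFOX2, RBM24, RBM20 and PTBP1. Of these 10, 8 matched an Ensembl pig gene identifier by symbol among the 22427 genes of the expression files, and all 8 were among the 13334 genes that averaged 1 TPM or more (TPM being transcripts per 1000000, a level corrected for transcript length) and were tested. CELF2 and RBM24 matched none by symbol, so no level is given for CELF2, and RBM24 is described at the end through an identifier found at its position.

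A switch in the balance of these regulators is textbook biology of the maturing muscle fibre. CELF1 and PTBP1 favour exon choices of immature muscle, while MBNL and RBFOX proteins bind their own short motifs beside exons and favour the adult choices, in genes of the sarcomere, of calcium handling and of ion transport. RBM20 and RBM24 act on sarcomere transcripts such as titin, and loss of MBNL function together with excess CELF1 is a known mechanism of myotonic dystrophy. Many of these regulators also act on the splicing of their own transcripts, so a level per gene says nothing of which isoform is made, and splicing itself was not measured here.

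The samples were longissimus dorsi, a back muscle, of pigs taken 33, 40, 50, 60, 70 or 95 days after mating (stages named E33 to E95), with 3 untreated input libraries and 3 libraries immunoprecipitated for m6A per stage, and the PK15 pig kidney cell line as polyA and as rRNA-depleted RNA. No breed, genotype or treatment separates the groups in the labels, and nothing there says whether the 3 libraries of a stage came from separate animals, so p-values measure only the spread between these libraries. Levels come from the 18 muscle input libraries, and peaks, which are stretches of transcript richer in the immunoprecipitate, from 8 deposited lists, 1 per stage and 1 per PK15 preparation. The lists have no replicates. PK15 levels were not analysed here.

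A single unnamed gene took 37.4 to 72.4% of the TPM of a library, and a further one took 17.3% in E40 replicate 2 and 14.4% in E50 replicate 3. TPM were therefore divided by median-ratio size factors, which ran from 0.301 in E50 replicate 3 to 2.00 in E33 replicate 2, and "scaled TPM" below are such values. From E33 to E95 the median gene differed by 0.00 on the log2 scale after scaling and by -1.02 as deposited. The scaled fit called 23.7% of genes higher and 23.1% lower, and the deposited values 2.64% higher and 45.8% lower. When TPM were only rescaled without the 2 most abundant genes, the median was -0.60, with 8.9% of genes called higher and 52% lower. Where the deposited values turn a direction or end a call for one of the regulators, this is said beside it.

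Skeletal muscle markers rose with age, from a summed 3381 to 4065 scaled TPM at E33 to 19740 to 28908 at E95, with 6 of 9 tested markers called higher and 2 lower. Neuron markers fell from a sum of 107 to 140 scaled TPM at E33 to 5.85 to 9.07 at E95, with 3 of 4 tested called lower, and erythroid markers had 2 of 5 called lower. Endothelial markers had 5 of 5 tested called higher, fibroblast markers 4 of 6 higher and 2 lower, immune 2 of 3 higher, adipocyte 2 of 3 higher, smooth muscle 1 of 4 higher and 2 lower, and Schwann cell 1 of 3 higher and 1 lower. Of the cardiac markers 2 of 4 matched, of which NPPB was at 0 in all 18 libraries and the other was called higher. Their sums, given as the E33 and then the E95 range in scaled TPM, were 87.8 to 236 and 15.7 to 31.4 for erythroid, 24.4 to 32.2 and 83.8 to 97.3 for endothelial, and 2799 to 3652 and 5711 to 8854 for fibroblast markers. They were 29.7 to 37.1 and 38.4 to 61.6 for immune, 0.664 to 1.91 and 24.9 to 97.2 for adipocyte, and 160 to 191 and 74.2 to 132 for smooth muscle markers. For Schwann cell and cardiac markers they were 52.3 to 56.7 and 27.3 to 85.1, and 48.2 to 65.0 and 233 to 338. Several regulators are made in more than 1 of these cell types, and the part of this shift in makeup in the levels below was not tested. In bulk tissue, fewer cells of a type and less RNA per cell cannot be told apart.

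A moderated F test over the 6 stages (limma, on log2(scaled TPM + 1)) called 5 of the 8 regulators (MBNL1, MBNL3, PTBP1, RBFOX1 and RBFOX2) at a Benjamini-Hochberg adjusted p under 0.05, where 47.3% of all genes were called. On deposited TPM it called PTBP1 alone (adjusted p = 0.0231, limma), where 20.1% of all genes were called. Between E33 and E95 the scaled fit called 6 of 8, against 46.7% of all genes. RBFOX1, MBNL1 and RBM20 were called higher, and PTBP1, RBFOX2 and MBNL3 lower. The median of the 8 changes was -0.12 on the log2 scale. The 3 libraries of E33 and the 3 of E95 did not overlap in scaled TPM for the same 6 regulators, as for 55.3% of all genes. PTBP1, RBFOX2 and MBNL3 were also called lower on deposited TPM, where MBNL2 and CELF1 joined them and no regulator was called higher, against 48.5% of all genes called.

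Between consecutive stages the scaled fit made 6 calls. From E33 to E40, where 20.9% of all genes were called, these were MBNL3, RBFOX1 and PTBP1. From E40 to E50 and from E50 to E60, where 1.51 and 0.817% were called, there were 0 (limma; 3 and 1 regulators at an unadjusted p under 0.05). RBFOX1 was called from E60 to E70, and RBFOX2 and MBNL3 from E70 to E95, where 1.73 and 13.6% of all genes were called. Deposited TPM gave 0 calls in the 5 pairs (limma; 3 at an unadjusted p under 0.05), with 4.87, 0.0075, 0.06, 0.0825 and 0.285% of all genes called.

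**Figure D1:**
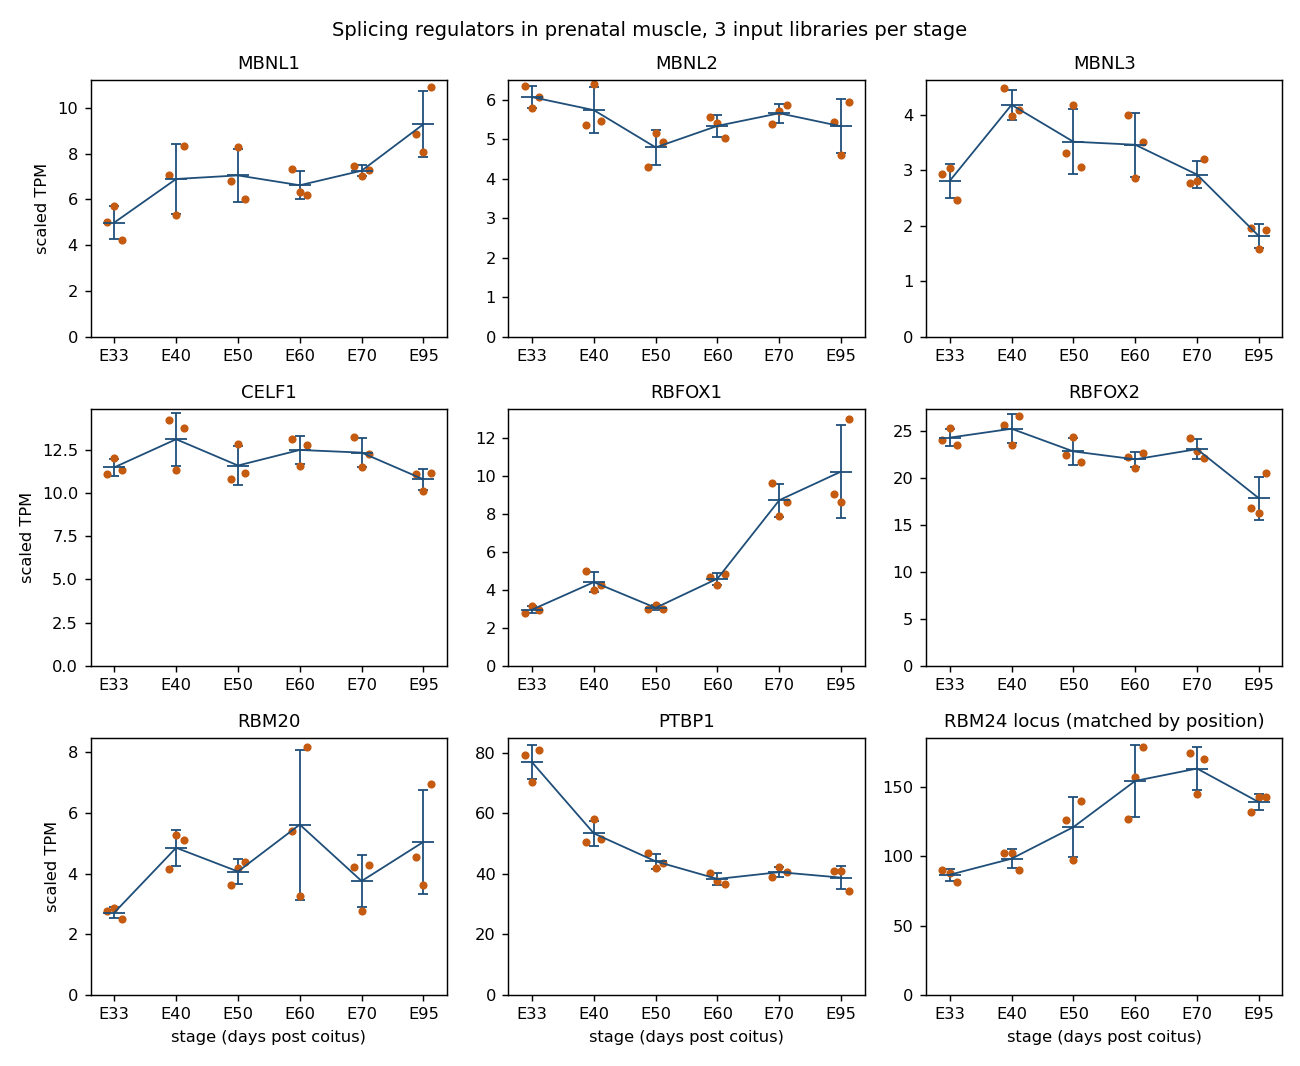
Scaled TPM (vertical axes, each from 0) against stage for the 8 regulators matched by symbol and for the identifier at the RBM24 locus. Orange points are the 3 input libraries of a stage, and blue bars their mean ± SD. RBFOX1 stands between 2.77 and 4.98 up to E60 and between 7.90 and 13.0 from E70, while PTBP1 leaves its E33 range of 70.5 to 81.1 by E40.

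RBFOX1 showed the largest rise of the 8 from E33 to E95. RBFOX1 (ENSSSCG00000007917; Sscrofa11.1 chr3:34938703-37209772, minus strand) encodes a splicing factor of muscle, heart and neurons that binds the GCATG motif. Its scaled TPM were 2.77, 3.17 and 2.92 at E33, then 4.98, 3.99 and 4.24 at E40, and 2.98, 3.21 and 2.96 at E50. They were 4.69, 4.24 and 4.85 at E60, then 9.64, 7.90 and 8.64 at E70, and 9.05, 8.62 and 13.0 at E95. All 6 libraries of E70 and E95 lay above all 12 earlier ones, with no overlap. The E95 minus E33 difference was 1.49 ± 0.12 (SE) on the log2(scaled TPM + 1) scale (adjusted p = 2.21e-07, limma).

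Most of this rise fell between E60 and E70, a difference of 0.80 ± 0.12 on the log2 scale (adjusted p = 0.00427, limma), a pair of stages in which no other regulator was called. RBFOX1 was also called higher at E40 than at E33 (0.45, adjusted p = 0.0205, limma), but leaving out E33 replicate 1, E33 replicate 3 or E40 replicate 1 ended that call, with adjusted p of 0.0728, 0.0650 and 0.0930. As deposited, the E95 minus E33 difference kept its sign at 0.42 and was not called (adjusted p = 0.40, limma). The deposited E40 minus E33 difference was -0.09 and the E70 minus E60 difference 0.52, neither called. Neither was called when TPM were rescaled without the 2 most abundant genes. Ranked within each library among the genes tested, which needs no scaling, RBFOX1 moved from the 28.3rd to 32.1st percentile at E33 to the 62.8th to 75.5th at E95. Such a rank is a place relative to the other genes. RBFOX1 had no peak in any of the 8 lists.

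Its paralog RBFOX2 moved the other way and less far. RBFOX2 (ENSSSCG00000000152; chr5:11633523-11905325, plus strand) binds the same motif and is made in many tissues. Its scaled TPM were 24.0, 25.3 and 23.5 at E33, stayed between 21.0 and 26.5 in the 12 libraries of E40 to E70, and were 16.8, 16.2 and 20.4 at E95. All 3 libraries of E95 lay below every earlier one. The E95 minus E33 difference was -0.43 ± 0.09 on the log2 scale (adjusted p = 0.00116, limma), and -1.65 as deposited (adjusted p = 0.0148). The drop from E70 to E95 was called (-0.36, adjusted p = 0.0155, limma), and was lost without E70 replicate 1, E95 replicate 1 or E95 replicate 2 (adjusted p between 0.0633 and 0.0732). As deposited this drop was not called, nor in a fit to the 6 libraries of these 2 stages alone.

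The 2 paralogs thus shared their summed level differently with age. RBFOX1 held 10.8% ± 0.442 (SD, n = 3) of the family's TPM at E33, 14.9% ± 1.28 at E40 and 11.8% ± 0.202 at E50. It then held 17.3% ± 0.460 at E60, 27.4% ± 1.54 at E70 and 36.2% ± 2.34 at E95. The family sum stayed between 24.6 and 33.8 scaled TPM over all 18 libraries, and the stage means between 25.8 at E50 and 31.8 at E70. RBFOX2 kept the larger share in every library.

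**Figure D2:**
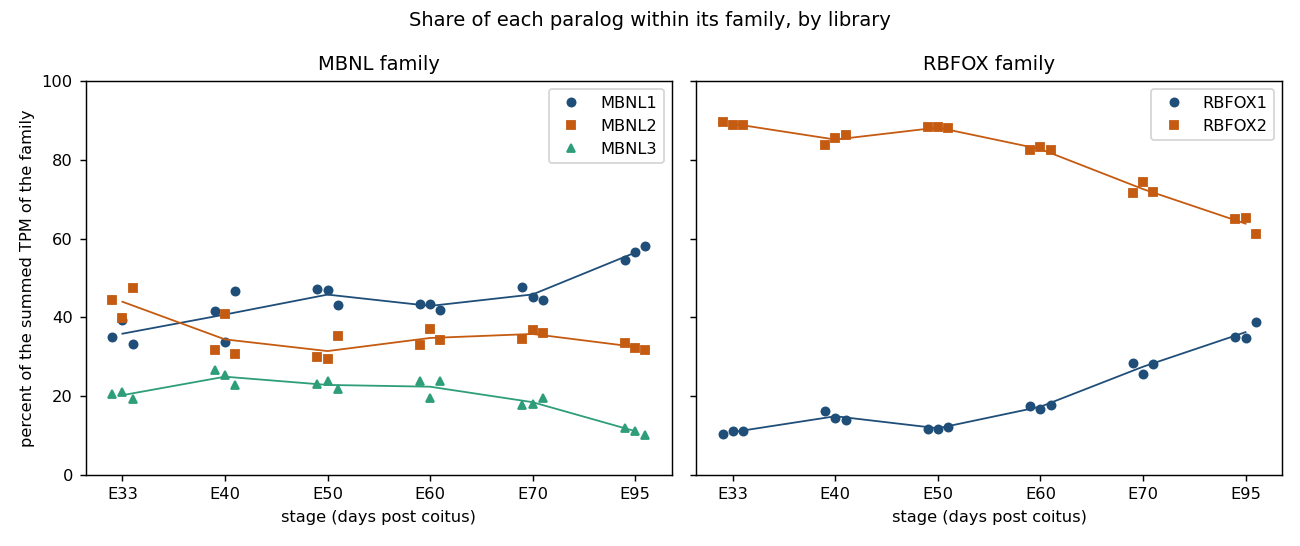
Percent of a family's summed TPM held by each paralog (vertical axis) against stage, for MBNL1, MBNL2 and MBNL3 on the left and RBFOX1 and RBFOX2 on the right. Points are single libraries and lines join stage means. RBFOX1 goes from 10.8 to 36.2% and MBNL1 from 35.8 to 56.4%, while MBNL3 ends at 11.08%.

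RBFOX2 transcripts carried peaks at 3 places in all 6 muscle lists, with fold enrichments (the authors' own value for each peak) of 1.79 to 5.85. The first, chr5:11809101-11809311 in 4 of the 6 lists, lies in an exon that opens 7 of the 41 coding RefSeq transcripts of RBFOX2 as 5′ untranslated sequence. The second is coding exon 3, and the third surrounds the stop codon in the last exon. Further peaks lay in coding exon 1 in 3 lists and in the 3′ untranslated region (UTR) in 3. The highest fold in muscle was 7.84 at E33 (94.8th percentile of its list). The midpoint of that peak lies in no RefSeq exon, upstream of the first place (chr5:11799658-11808951). The highest of all was 32.8 in PK15 polyA RNA, in the first place (94.9th percentile of its list). The median fold of a list was 3.51 to 4.88 in muscle, 7.41 in PK15 polyA RNA and 3.92 in PK15 rRNA-depleted RNA. Folds of different lists are therefore not on a common scale.

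The stretch of exon 3 inside the peaks of all 6 stages, and 25 bases from the peak behind the stop codon, are shown to give the sequence that was enriched. Capitals mark matches to the m6A consensus DRACH, read on the transcript strand as A, G or T, then A or G, then A, then C, then A, C or T, with overlapping matches kept. A match is a description of the letters and not a mapped site.
RBFOX2 exon 3, chr5:11842232-11842352, plus strand: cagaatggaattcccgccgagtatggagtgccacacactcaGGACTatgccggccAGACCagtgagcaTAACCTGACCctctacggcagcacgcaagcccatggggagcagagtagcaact
RBFOX2 behind the stop codon, chr5:11899765-11899789, plus strand: cctgcaaatgGGACAgccccccagt

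Among the muscleblind-like genes, MBNL1 rose and MBNL3 fell while MBNL2 did not pass the test. MBNL1 (ENSSSCG00000011720; chr13:92491778-92696235, plus strand) encodes the main muscleblind protein of adult muscle, the one sequestered on expanded repeats in myotonic dystrophy. Its scaled TPM were 5.02, 5.70 and 4.24 at E33, then 7.05, 5.30 and 8.32 at E40, and 6.82, 8.29 and 6.03 at E50. They were 7.32, 6.34 and 6.18 at E60, then 7.48, 7.0 and 7.28 at E70, and 8.87, 8.09 and 10.9 at E95. The E33 and E95 libraries did not overlap, while the stages between overlapped one another.

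The MBNL1 difference from E33 to E95 was 0.78 ± 0.15 on the log2 scale (adjusted p = 0.000596, limma). It depended on the scaling. It was 0.70 after quantile normalization, 0.21 and not called when TPM were rescaled without the 2 most abundant genes, and -0.33 and not called as deposited (adjusted p = 0.566, limma). In rank, MBNL1 moved from the 41.9th to 51.5th percentile of its library at E33 to the 61.0th to 70.8th at E95, without overlap. Being relative to the other genes, the rank cannot decide between these scalings. The MBNL1 call in the F test was lost without E33 replicate 3 (adjusted p = 0.0542).

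MBNL3 (ENSSSCG00000012676; chrX:108488224-108612896, minus strand), the family member tied to undifferentiated and regenerating muscle, peaked at E40. Its scaled TPM were 2.93, 3.04 and 2.47 at E33 and 4.49, 3.97 and 4.08 at E40. They ranged from 2.76 to 4.18 over E50, E60 and E70, and were 1.95, 1.57 and 1.92 at E95, below all 15 earlier libraries. The E95 minus E33 difference was -0.44 ± 0.11 on the log2 scale (adjusted p = 0.00596, limma) and -1.33 as deposited (adjusted p = 0.0150). The rise to E40 was 0.45 (adjusted p = 0.0141, limma), and was lost without E33 replicate 3 or E40 replicate 1 (adjusted p = 0.0715 and 0.0609). As deposited, that difference was -0.08. Rescaling TPM without the 2 most abundant genes also ended the call. The fall from E70 to E95 was -0.48 (adjusted p = 0.0119, limma) and was lost without E70 replicate 3 or E95 replicate 2 (adjusted p = 0.0545 and 0.0564). As deposited this fall was not called, nor in a fit to the 6 libraries of these 2 stages alone.

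MBNL2 (ENSSSCG00000009505; chr11:66481923-66641653, plus strand), a paralog prominent in brain as well as muscle, ran from 5.79 to 6.37 scaled TPM at E33 and from 4.61 to 5.96 at E95, which overlap. The difference was -0.16 ± 0.09 on the log2 scale (adjusted p = 0.154, limma). As deposited it was -1.25 and called (adjusted p = 0.0177), where the median of all genes was -1.02. In rank MBNL2 went from the 52.14th to 55.01st percentile at E33 to the 44.0th to 51.9th at E95, without overlap.

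Within the family, MBNL2 was the largest part in all 3 libraries of E33, and MBNL1 in all 12 libraries from E50 on. MBNL1 held 35.8% ± 3.11 (SD, n = 3) of the summed MBNL TPM at E33 and 56.4% ± 1.74 at E95. MBNL2 went from 43.9% ± 3.86 to 32.5% ± 0.855, and MBNL3 from 20.2% ± 0.818 to 11.08% ± 0.891. MBNL1 and MBNL3 shares at E33 and E95 did not overlap, nor did those of MBNL2. The family sum was 13.9 ± 0.956 scaled TPM at E33 and 16.4 ± 2.26 at E95.

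MBNL1 and MBNL2 each had 1 peak in 5 of the 6 muscle lists, with E40 the exception for both. The E40 list is the shortest, with 4928 peaks against 7058 to 8685 at the other stages. The MBNL1 peak spans the junction of exons 11 and 12 around the stop codon, with folds of 3.23 at E33 and then, from E50, of 3.74, 3.14, 4.29 and 5.45, the last at chr13:92690157-92692986. PK15 polyA RNA had it at 18.2 and rRNA-depleted RNA at 5.83, at the 84.1st and 75.5th percentile of their lists, against the 66.2nd for 5.45 at E95. The MBNL2 peak lies in exon 3, with its midpoint in the 5′ UTR, and has folds of 2.84, 6.01, 3.27, 3.75 and 5.02 at the same stages and 9.53 and 5.01 in PK15. The 2 PK15 folds stood at the 60.9th and 66.9th percentile of their lists. The highest in muscle, at E50, stood at the 65.1st and covers chr11:66536069-66536188. MBNL3 had no peak in any list. PK15 RNA had further peaks elsewhere in both transcripts. The shown stretches hold the DRACH match, in capitals, that lies in the recurrent peak of each gene in all 5 muscle lists.
MBNL1 behind the stop codon, chr13:92692815-92692839, plus strand: aaagaggaaaGGACAgtgtgcttgg
MBNL2 5′ UTR, chr11:66536155-66536179, plus strand: gatggatgagTGACTgcctgccgat

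**Figure D3:**
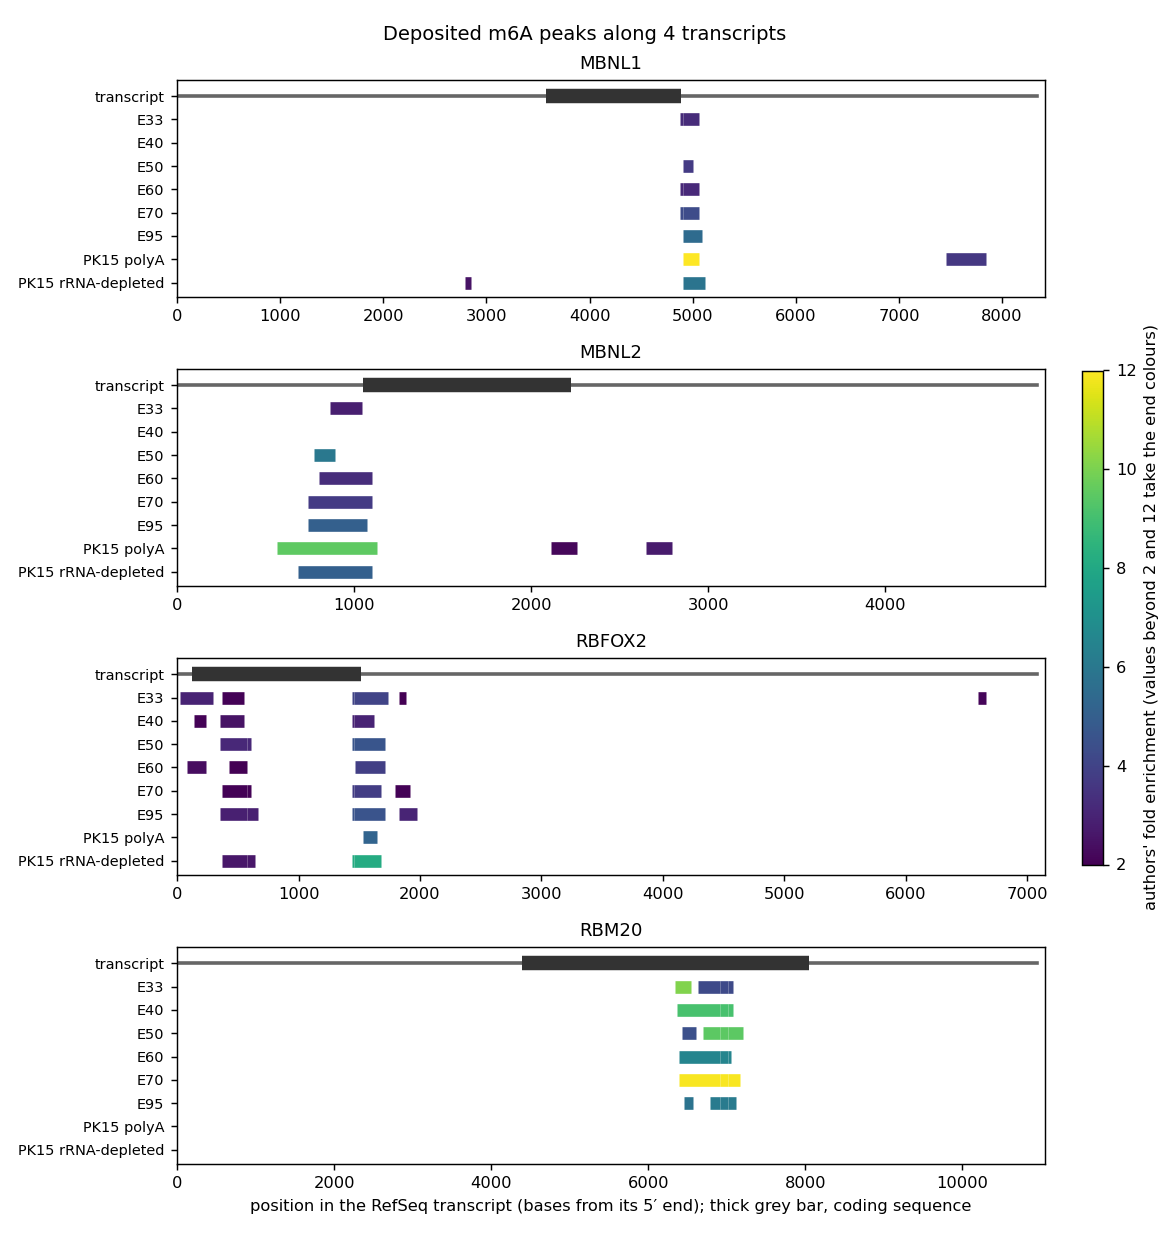
Deposited m6A peaks (coloured bars) along 1 coding RefSeq transcript of each of 4 regulators, with bases from the transcript's 5′ end on the horizontal axis, 1 row per list, and colour for the authors' fold enrichment. MBNL1 and MBNL2 have no bar at E40, and RBM20 has bars in all 6 muscle rows and in neither PK15 row; peaks outside this transcript, such as the alternative first exon of RBFOX2, are not drawn.

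CELF1, the counterpart of MBNL1 in fetal splicing, did not pass the test on scaled values. CELF1 (ENSSSCG00000013233; chr2:15066518-15161478, plus strand) ranged from 10.1 to 14.2 scaled TPM over all 18 libraries. Its stage means were 11.5 ± 0.498 (SD, n = 3) at E33, highest at 13.1 ± 1.54 at E40 and lowest at 10.8 ± 0.607 at E95. The E95 minus E33 difference was -0.08 ± 0.09 on the log2 scale (adjusted p = 0.501, limma). As deposited it was -1.26 and called (adjusted p = 0.0414). In rank CELF1 went from the 71.49th to 74.98th percentile at E33 to the 67.34th to 71.46th at E95, which only just do not overlap. CELF1 had no peak in the muscle lists and 2 in PK15 polyA RNA, both in the 3′ UTR, the higher with a fold of 15.4 (chr2:15152982-15153191).

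PTBP1, a repressor of exons used in differentiated muscle and nerve, fell from E33 to E60, most of all in the first step. PTBP1 (ENSSSCG00000013421; chr2:77551562-77563153, minus strand) was the most abundant of the 8 at every stage. Its scaled TPM were 79.1, 70.5 and 81.1 at E33, then 50.6, 58.0 and 51.4 at E40, and 46.8, 42.0 and 43.6 at E50. They were 40.4, 37.8 and 36.8 at E60, then 39.0, 42.1 and 40.5 at E70, and 41.0, 40.9 and 34.3 at E95. The E33 libraries lay above all others, those of E40 above those of E50, and those of E50 above those of E60. The libraries of E60, E70 and E95 overlapped one another.

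The PTBP1 difference from E33 to E95 was -0.97 ± 0.09 on the log2 scale (adjusted p = 9.89e-07, limma), and -2.23 as deposited (adjusted p = 0.00164). The first step, E40 minus E33, took -0.52 ± 0.09 of it (adjusted p = 0.00152, limma), and no later pair of stages was called. Quantile normalization also called PTBP1 lower from E40 to E50. TPM rescaled without the 2 most abundant genes called it lower from E70 to E95. As deposited this first step was -1.23 and not called (adjusted p = 0.131), and without E40 replicate 2 and E50 replicate 3 it was -0.76 and called (adjusted p = 0.0333). In rank PTBP1 went from the 96.3rd to 96.5th percentile at E33 to the 90.8th to 91.9th at E95.

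Peaks carry the PTBP1 identifier at E33, E50, E60 and E95, but the one that recurs lies outside the RefSeq gene. At E33 it covers chr2:77550049-77550499 and ends 1062 bases beyond the RefSeq end of PTBP1, within an exon of PLPPR3, which runs on the opposite strand (chr2:77538925-77552046). Its highest fold was 12 in PK15 polyA RNA, and in muscle 8.08 at E95. Within their own lists the order was the reverse, with the 69.6th percentile in PK15 polyA RNA and the 86.9th at E95. The E60 peak, with a fold of 7.43, stood at the 88.8th. Whether reads were assigned by strand is not given in the sources used here, so reads of the 2 genes cannot be told apart. By RefSeq exons on its own strand, PTBP1 had peaks at E33 alone among the muscle stages, 1 at the stop codon with a fold of 1.85 and 1 in exon 13 with a fold of 1.95, and in PK15 rRNA-depleted RNA 1 in exon 13 with a fold of 2.35.

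RBM20, the titin splicing factor mutated in a dilated cardiomyopathy, was higher at E95 than at E33, with the largest standard error of the 8. RBM20 (ENSSSCG00000010626; chr14:121058896-121269824, plus strand) had scaled TPM of 2.77, 2.85 and 2.52 at E33 and 4.17, 5.28 and 5.10 at E40. It ranged from 2.76 to 8.19 over E50, E60 and E70, both ends beyond those of E95, at 4.55, 3.62 and 6.97. E33 and E95 did not overlap. The difference was 0.67 ± 0.24 on the log2 scale (adjusted p = 0.0351, limma). The call was lost without any 1 of the 3 E33 libraries, or without E95 replicate 1 or 3, with adjusted p of 0.0553 to 0.159, and the difference was -0.33 and not called as deposited (adjusted p = 0.526). The F test did not call RBM20 (adjusted p = 0.110, limma), and did so without E60 replicate 2 (adjusted p = 0.0167).

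RBM20 had peaks in all 6 muscle lists and in neither PK15 list, with a higher fold than any other regulator at E33, E40, E50 and E70. At E60 and E95 the peak that carries the PTBP1 identifier was higher, with 7.43 and 8.08. All lie in the coding sequence, in exons 15 to 17 of the 20 of its 1 RefSeq coding transcript. The highest folds, in order of stage, were 10.1, 9.10, 9.49, 6.54, 11.9 and 6.12, and the E70 peak (chr14:121245100-121252797) ranked at the 95.4th percentile of its list. The stretches covered at all 6 stages are shown for exons 15 and 16, since DRACH matches, in capitals, are dense in them, with 8 in the first 91 bases. Over the transcript, DRACH occurred 3.34 times per 100 bases inside the muscle peaks and 1.92 outside.
RBM20 exon 15, chr14:121245160-121245250, plus strand: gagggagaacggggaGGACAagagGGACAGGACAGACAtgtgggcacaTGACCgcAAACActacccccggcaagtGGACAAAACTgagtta
RBM20 exon 15, chr14:121245490-121245613, plus strand: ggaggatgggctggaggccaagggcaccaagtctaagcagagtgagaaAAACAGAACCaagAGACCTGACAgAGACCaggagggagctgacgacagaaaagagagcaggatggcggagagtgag
RBM20 exon 16, chr14:121251404-121251508, plus strand: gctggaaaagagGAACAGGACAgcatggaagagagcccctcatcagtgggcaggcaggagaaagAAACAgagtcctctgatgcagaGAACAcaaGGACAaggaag

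The density of DRACH was 3.14 inside and 1.82 outside the peaks for MBNL1, 2.79 and 1.98 for MBNL2, and 1.77 and 1.58 for RBFOX2. It was 2.33 and 1.54 for PTBP1, and lower inside, with 1.37 and 1.67, at the RBM24 locus. Only peak bases within 1 RefSeq transcript per gene were counted inside. For PTBP1 these were its E33 peaks in RefSeq exons. Its recurrent peak was left out, with 0 to 0.95 matches per 100 bases in muscle. The muscle peaks of RBFOX2 outside its transcript, among them the alternative first exon, were left out too, with 0 to 0.95. A DRACH match lay in 88.7% of the 53 muscle peaks of the regulators and 95.7% of the 44099 muscle peaks on assembled chromosomes. By place, 12 of the 53 lay near a stop codon (within 200 bases), 19 in coding sequence, 4 in a 3′ UTR and 5 in a 5′ UTR. A further 6 lay in another RefSeq exon, 2 in introns and 5 outside genes on their strand. These 53 count the same place again at each stage. All 5 in a 5′ UTR are the recurrent MBNL2 peak, and the 12 near a stop codon belong to MBNL1, RBFOX2 and PTBP1. Over all muscle peaks the shares were 19.3% near a stop codon, 60.9% coding, 9.24% in a 3′ UTR, 3.02% in a 5′ UTR, 2.33% in another RefSeq exon, 0.882% in introns and 4.30% outside genes. Peaks were found for 26 of the 48 pairs of a regulator and a muscle stage, in order of stage 5, 2, 5, 5, 4 and 5 of the 8 regulators, where 33.5, 22.9, 32.6, 31.7, 35.6 and 37.5% of genes at or above 1 TPM at the stage had one. These pairs include PTBP1 at E50, E60 and E95, where no peak lay in its own RefSeq exons. In all, 50 of the 53 peaks overlapped a peak of the same gene at another stage (94.3%), as did 92.2% of all muscle peaks.

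RBM24, a muscle RNA-binding protein needed for sarcomere assembly, has a RefSeq gene at chr7:13126518-13139504 (plus strand). No symbol in the gene name table led to it, but peaks under the identifier ENSSSCG00000038455 lay in its exon 1, in the 5′ UTR, in all 6 muscle lists and neither PK15 list, with folds of up to 5.98. This link was made after values were seen and is left out of every count. The identifier stood at 81.8 to 90.4 scaled TPM at E33, 127 to 179 at E60, 145 to 175 at E70 and 132 to 143 at E95. The E95 minus E33 difference was 0.68 ± 0.14 on the log2 scale (adjusted p = 0.00124, limma), without overlap, and -0.59 and not called as deposited. CELF2 had no peak at its RefSeq exons in any list.

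**Figure D4:**
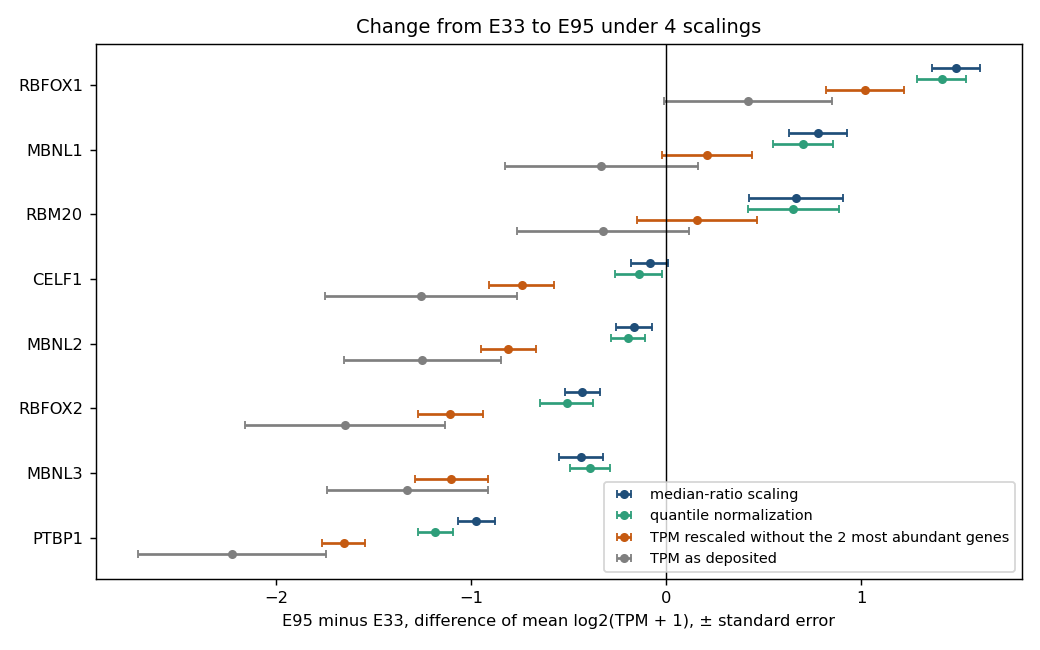
Difference of E95 from E33 in mean log2(TPM + 1) with its standard error (horizontal axis) for each regulator under 4 scalings. RBFOX1 lies above 0 and PTBP1, RBFOX2, MBNL3, MBNL2 and CELF1 below 0 under all 4, while MBNL1 and RBM20 fall on both sides of 0, at -0.33 each as deposited.

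In the ratio of 2 regulators a library's size factor cancels apart from the pseudocount, and each ratio was compared between the 9 libraries of E33, E40 and E50 and the 9 of E60, E70 and E95. Of 7 ratios planned, 5 could be computed, and p-values from the exact two-sided permutation test were adjusted over these 5. RBFOX1:RBFOX2 moved most, by 1.30 on the log2 scale, or 2.46-fold, from a mean of -2.78 ± 0.246 (SD, n = 9) to -1.48 ± 0.630 (exact permutation p = 4.11e-05, the smallest that 9 against 9 can give, adjusted p = 0.000206). All 9 late libraries lay above all 9 early ones. By stage the ratio went from 0.124 at E33 to 0.212 at E60, 0.381 at E70 and 0.571 at E95.

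MBNL1:PTBP1 rose by 0.83 on the log2 scale, from -3.17 ± 0.657 to -2.35 ± 0.292 (SD, n = 9; exact permutation adjusted p = 0.00216), with 3 of 9 late libraries above all early ones. Its values in order of stage were 0.0653, 0.129, 0.162, 0.174, 0.181 and 0.242. MBNL1:MBNL3 rose by 0.67, from 0.82 ± 0.204 to 1.49 ± 0.611 (SD, n = 9; exact permutation adjusted p = 0.00439), and reached 4.78 at E95 from 1.75 at E33.

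MBNL1:CELF1, the pair whose balance is disturbed in myotonic dystrophy, rose by 0.32 on the log2 scale (exact permutation adjusted p = 0.0440, 9 against 9 libraries). This call was lost without any 1 of 9 libraries, namely the 3 of E33, the 3 of E95, E40 replicates 1 and 2 and E70 replicate 2. In order of stage the ratio was 0.434, 0.523, 0.610, 0.531, 0.591 and 0.855, and the 3 libraries of E95 (0.799 to 0.975) lay above all others. MBNL1:MBNL2 rose by 0.32 and did not pass (exact permutation adjusted p = 0.0865, 9 against 9 libraries), and did so without E50 replicate 1 or E50 replicate 2. Libraries of 1 stage share that stage, and whole stages were placed early or late. The permutation exchanged single libraries as if they were independent. Its p-values therefore describe these libraries and cannot decide whether early and late stages differ. A test with the stage as the unit was not run.

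The order of levels among the 8 changed below the top. PTBP1, RBFOX2 and CELF1 held the top 3 places at all 6 stages, with every library of each above every library of the next, except that CELF1 and RBFOX1 overlapped at E95. Below them, MBNL2 and MBNL1 led at E33, and RBFOX1 overlapped with MBNL3, and MBNL3 with RBM20. At E70 RBFOX1 came next after them, above MBNL1 in every library, and at E95 CELF1, RBFOX1 and MBNL1, with means of 10.8, 10.2 and 9.28 scaled TPM, each overlapped the next. MBNL3 was lowest at E95, below every library of the other 7.

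The genes whose 6 stage means ran most like those of each regulator were found by the mean absolute difference of centred log2 stage means over 18 libraries. They were UBAP2 (0.02) and DECR1 (0.02) for MBNL1, DBT (0.02) and TGS1 (0.03) for MBNL2, and YEATS2 (0.04) and YES1 (0.04) for MBNL3. For CELF1 they were PCNX1 (0.02) and ZNF148 (0.02), for RBFOX2 TTC27 (0.01) and UPF3B (0.03), and for RBM20 SLCO5A1 (0.06) and LARP7 (0.07). PTBP1 was matched by COTL1 (0.05) and NALF2 (0.06), and RBFOX1 less closely by C4A (0.11) and TP53INP1 (0.12).

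Other splicing regulators moved in both directions. Of a list of 50, 45 matched, 39 were tested, and from E33 to E95 8 were called higher and 11 lower, with a median change of -0.14 on the log2 scale, where 23.7 and 23.1% of all genes were called. As deposited 23 were called lower and none higher, where 45.8 and 2.64% of all genes were. RBM38, which acts on RNA stability and splicing in differentiating muscle, rose by 2.01 (5.60 ± 1.32 to 25.5 ± 4.56 scaled TPM, SD, n = 3; adjusted p = 4.2e-07, limma). RBPMS rose by 1.08, NOVA2 by 0.97, KHDRBS2 by 0.90 and QKI, a regulator of muscle and glial splicing, by 0.80 on the log2 scale. The deposited changes of these 5 were 0.85, 0.31, 0.36, -0.15 and -0.44, none called. RBPMS2 fell by 0.89, CELF3, a neuronal paralog of CELF1, by 0.87, HNRNPA1 by 0.71, SRSF11 by 0.53 and KHDRBS3 by 0.49, and all 5 were called lower as deposited too. Neuron markers fell in the same libraries.

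Genes whose exons these regulators are known to control in muscle were mostly higher late, as levels per gene. Of 35 listed, 31 were tested, with 24 called higher and 4 lower, and a median change of 1.05 on the log2 scale against 0.00 over all genes, of which 23.7% were called higher and 23.1% lower. As deposited 5 were called higher and 6 lower, where 2.64% of all genes were called higher and 45.8% lower. TNNT3, fast troponin T, rose by 4.29, NRAP by 4.0, ATP2A1, the calcium pump of fast fibres, by 3.46, TPM2 by 2.97 and TPM1 by 2.24. The first 4 were also called higher as deposited, and TPM1 was not (0.97, adjusted p = 0.115, limma). TNNT2, the troponin T of heart and fetal muscle, fell by 1.62, ENAH by 1.34, FHOD3 by 0.77 and CAPZB by 0.22, and these 4 were called lower as deposited too. Skeletal muscle markers rose in the same libraries, and TNNT3 is on both lists.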

How the data were processed

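The 8 regulators were matched by symbol through a table pairing Ensembl identifiers with names; the members and gene lists were chosen with earlier results of these data known. The deposited expression values are TPM per gene computed by the authors, per the file headers, 1 file per muscle input library. Each sums to 1000000, so depth is unknown and the number of libraries limits the precision. Each deposited list holds 1 line per peak with the authors' fold enrichment (a ratio) and p-value, per the file headers; the submitters' processing notes name Trimmomatic, HISAT2 and Sscrofa11.1, and the quantifier and peak caller are not given in the sources used here.

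TPM were divided by median-ratio size factors and tested on log2(scaled TPM + 1) with limma 3.58.1 (R 4.3.3), 1 mean per stage over 18 libraries, with trended moderation, over 13334 genes averaging 1 TPM or more. Two-sided contrasts and the F test were Benjamini-Hochberg adjusted over all of them, and called under 0.05. The fit was tested on simulated data. Ratios used deposited TPM + 0.1 and scipy 1.17.1. Peaks were placed on RefSeq transcripts, with exon junctions of 79.1 to 89.7% of spliced peak blocks per list falling on RefSeq introns of Sscrofa11.1.

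Named genes were the members, the 5 largest called changes from E33 to E95 in each direction per list, the 2 genes with the most similar stage means per member, and the peak of highest fold per member. Alternatives were other scalings, pseudocounts, filters, a replicate block, moderation without a trend, fits to the libraries of 2 stages, left-out libraries, and stricter peak rules.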

Additional observations from a re-analysis of the deposited data

How the results depend on the processing

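The scaling between libraries decided most. On TPM as deposited the F test called 1 regulator in place of 5 and consecutive stages gave 0 calls in place of 6 (limma; 3 at an unadjusted p under 0.05), while MBNL1 and RBM20 had E95 minus E33 changes of -0.33 and -0.33, with and, in an alternative chosen after seeing the data, without E40 replicate 2 and E50 replicate 3. In that added alternative the F test called 6 regulators, among 71.3% of all genes, and consecutive stages gave 4 calls. Its consecutive pairs, in order, called 11.5, 0.0518, 0.111, 0.362 and 14.1% of all genes. Quantile normalization, a pseudocount of 0.1 TPM, no filter, moderation without a trend and the libraries of 2 stages alone called the same number from E33 to E95, 6. In that order they called 47.2, 46.3, 36.4, 46.7 and 42.7% of all genes. TPM rescaled without the 2 most abundant genes also called 6, but not the same ones, where 60.8% of all genes were called. RBFOX1 was then called higher, and MBNL2, CELF1, PTBP1, RBFOX2 and MBNL3 lower. Of all genes, 8.9% were called higher and 52% lower. MBNL1 (0.21) and RBM20 (0.16) were not called. The cause of the differences was not tested. For MBNL1:CELF1 the call was lost with a pseudocount of 1 TPM (0.27), without both libraries (0.32) and with the replicate block (0.32, adjusted p = 0.0584 by exact permutation within numbers, 9 against 9). Leaving out 1 library each, MBNL1:CELF1 ranged from 0.24 to 0.37 and MBNL1:MBNL2 from 0.23 to 0.38. The replicate numbers gave little sign of pairing. Same-numbered deviations from the stage means correlated at -0.124 to 0.101, and 8 of 18 libraries correlated best with their own number. Such low correlations cannot exclude that libraries of 1 number were processed together. With the replicate block, consecutive stages gave 7 calls, where 19.1, 0.915, 0.645, 1.44 and 12.8% of all genes were called, in order. The peak counts stayed within 1.5 times: 18 or 23 of 48 pairs, 50 shared peaks, and 12 or 16 peaks near a stop codon. Low levels, with deposited TPM down to 0.892 for MBNL3, 1.32 for RBM20 and 0.892 for RBFOX1, have no depth given to set their counting error. At E95, where its fall was called, MBNL3 stood at 0.892 to 1.65 deposited TPM.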
